A study of Mus musculus with 2 samples.

Results

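The annotated genes of microRNA (miRNA) precursors were examined in 2 RNA-seq libraries of Dicer_KO mouse embryonic stem cells (mESCs). A gene was taken when its identifier had the biotype miRNA in the GENCODE annotation of GRCm38, its symbol started with Mir, and its counts summed to at least 3 over both libraries. This left 116 genes of 1051 listed under such a symbol. Both libraries came from E14TG2a mESCs on a 129/Ola background, cultured in serum with LIF, in which a pair of Cas9 cuts had deleted part of Dicer1. Replicate 1 was collected at passage 7 and replicate 2 at passage 4. The study describes 2 Dicer_KO lines with different deletions, each grown from 1 sorted cell, and the sample labels do not say which line or deletion a library carries. Line, passage and library therefore cannot be told apart in any difference between the libraries, and such a difference has no replicate check. No value below is an effect of the Dicer1 deletion, because libraries of WT mESCs were not analysed here.

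A miRNA is cut from a long primary transcript. The nuclear Microprocessor, made of DROSHA and DGCR8, releases a hairpin from it, and DICER then trims the hairpin to the short duplex from which the mature miRNA is loaded onto an Argonaute protein. The seed, bases 2 to 8 of the mature miRNA, pairs with target mRNAs. Mature miRNAs carry no poly(A) tail, so poly(A) RNA-seq reads on a hairpin gene come mainly from primary transcripts, introns and other longer RNAs that cover the hairpin. In mESCs with DICER the miR-290 cluster supplies a large part of all miRNAs, and its members with the AAGUGC core promote the rapid cell cycle of these cells. By northern blot, the study found mature miR-295 and miR-16 absent from its Dicer_KO lines. The mature sequences below are those annotated for each hairpin, and their presence in these libraries was not measured.

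Of the 116 genes, 108 were matched in RefSeq (GRCm38.p6), with 183 mature sequences and 171 different seeds. Of these seeds, 9 were shared by at least 2 genes. The 3p sequences of the miR-290 cluster are shown because this cluster held the most counts among the clusters examined. They are written 5′ to 3′ with the seed in capitals, and the 3p arm of Mir292 was not among the matched sequences.
miR-290a-3p: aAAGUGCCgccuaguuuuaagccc
miR-291a-3p: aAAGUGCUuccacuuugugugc
miR-291b-3p: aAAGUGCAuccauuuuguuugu
miR-293-3p: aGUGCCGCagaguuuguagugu
miR-294-3p: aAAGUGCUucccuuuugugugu
miR-295-3p: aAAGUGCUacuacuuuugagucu
The seed AAGUGCU was shared by Mir291a, Mir294 and Mir295, and also by Mir302b of the miR-302 cluster on another chromosome (miR-302b-3p: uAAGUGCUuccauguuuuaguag). The 4 genes together had 1174 counts in replicate 1 and 402 in replicate 2, of which Mir302b gave 1 and 2.

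The 5p arms of the cluster grouped differently, and are shown because they join the hairpins whose 3p seeds differ.
miR-290a-5p: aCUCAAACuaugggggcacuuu
miR-292a-5p: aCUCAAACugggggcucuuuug
miR-293-5p: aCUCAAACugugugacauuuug
miR-294-5p: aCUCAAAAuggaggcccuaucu
miR-295-5p: aCUCAAAUguggggcacacuuc
miR-291a-5p: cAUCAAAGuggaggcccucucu
miR-291b-5p: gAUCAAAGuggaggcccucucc
Mir290a, Mir292 and Mir293 share CUCAAAC, and these genes were the only carriers of it among the 1738 mature sequences of the RefSeq table. Mir291a and Mir291b share AUCAAAG, which no other entry of the table held. Outside this cluster, the pairs with one seed that carried most counts were Mir363 with Mir92-2 on the X chromosome, and Mir692-1 with Mir692-2, which encode the same mature sequence.
miR-363-3p: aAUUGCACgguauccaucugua
miR-92a-3p: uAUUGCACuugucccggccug
miR-692: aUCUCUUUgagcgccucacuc

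The libraries held 41710122 and 41566184 counts on 43629 genes, so that 3 counts, the floor used here, correspond to 0.0719 and 0.0722 CPM, the usual scaling of a gene's counts by all counts on genes in its library. Dicer1 had 1343 counts in replicate 1 and 1510 in replicate 2. A count over the whole gene does not resolve the deleted exons and checks the label of neither library. Drosha had 12509 and 9041 counts and Dgcr8 had 3316 and 3616. Of 8 mESC markers, among them Pou5f1 and Nanog, none was under 61.6 CPM in either library, and their summed level was 9477 CPM in replicate 1 and 6030 CPM in replicate 2. Dppa5a (4792 and 2041 CPM) was the largest part of this sum in each library. It was higher in replicate 1, as the miR-290 cluster was. So were Nanog (1139 and 631), Tdgf1 (869 and 685), Sox2 (635 and 514) and Klf4 (89.9 and 61.6). Esrrb was close in both (565 and 544), whereas Pou5f1 (937 and 1035) and Zfp42 (451 and 519) were lower in replicate 1. Over all markers of a type, the summed level was 20.4 and 15.4 CPM for 5 fibroblast markers, nearly all of it Thy1, with Postn at 0 in both libraries and Col3a1 at 0 in replicate 2. It was 16.02 and 8.42 CPM for 4 primitive endoderm markers, 0.120 and 0.0481 CPM for 3 mesoderm markers, and 19.7 and 56.0 CPM for 3 neural markers. The part of these cells in the differences below was not tested. In such bulk RNA, fewer cells of a type and less RNA per cell cannot be told apart.

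The miRNA genes took a small share of each library and most of them were near the floor. Together they had 6082 counts in replicate 1 (145.8 CPM, 0.0146% of all counts) and 3291 in replicate 2 (79.2 CPM, 0.00792%). The genes were chosen by their counts summed over both libraries, so these totals are a description. Of the 116 genes, 70 had 3 to 9 counts, 21 had 10 to 19 and 25 had 20 or more, while 12 reached 100 and 1 reached 1000. Over all listed genes, 51.8% had at least 3 counts. At the threshold, 25 genes had exactly 3 counts, while 47 listed miRNA genes had 2, 81 had 1 and 807 had none in either library. The hairpin genes with reads were 55 to 139 bases long, with a median of 79.5 against 82 for those left out.

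Counts were concentrated in few hairpins. The 10 genes with the most counts held 84.7% of the total. These were Mir692-1, Mir6236, the 7 hairpins of the miR-290 cluster and Mir5125. Of the 116 genes, 81 had counts in both libraries and 47 had at least 3 in each. In replicate 1, 24 genes were at 0, and in replicate 2, 11 genes. Among all genes with at least 3 counts these shares were 1.9% and 2.14%, but that group holds genes of all count levels, whereas the median miRNA gene had 6 counts over both libraries.

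**Figure D1:**
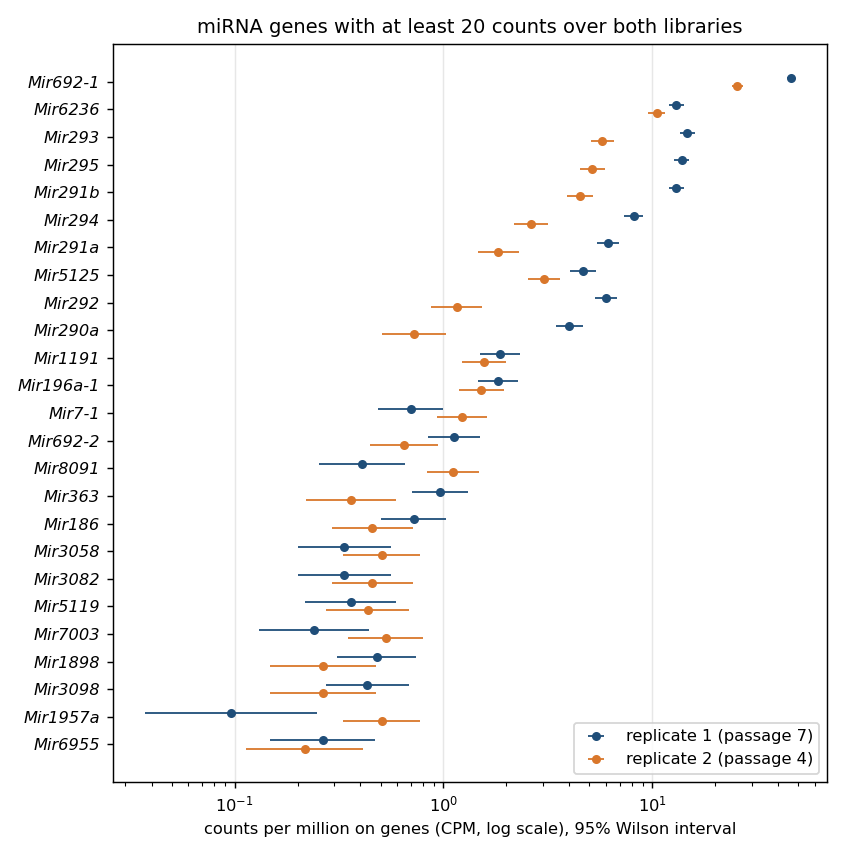
The level of each of the 25 miRNA genes with at least 20 counts is plotted on a log axis of CPM, with 1 point per library and the 95% Wilson interval of counting error. The 7 hairpins of the miR-290 cluster were higher in replicate 1 with intervals that do not meet, whereas Mir1191 and Mir196a-1 overlapped.

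The miR-290 cluster had reads at every listed hairpin in both libraries. It lies on the plus strand of chromosome 7, between 3218626 and 3220841. Its 7 genes listed with counts are Mir290a, Mir291a, Mir292, Mir291b, Mir293, Mir294 and Mir295, in that order. Nlrp12, an inflammasome-related gene on the opposite strand, spans the listed hairpins other than Mir290a and had 25 and 35 counts. Opposite Mir290a lies Mir290b, which had no entry among the counted genes. The strand setting of the counting is not given, and without strand, reads on positions shared with a gene on the other strand would have been left out or mixed, so the counts of these hairpins depend on it. The cluster had 2748 counts in replicate 1 (65.9 CPM) and 905 in replicate 2 (21.8 CPM), which was 45.2% and 27.5% of all miRNA gene counts.

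Each of its hairpins was higher in replicate 1. Mir290a had 167 counts in replicate 1 and 30 in replicate 2, and Mir292 had 250 and 48. Mir291a had 255 and 76 counts, Mir291b had 543 and 187, and Mir293 had 615 and 240. Mir294 had 340 and 109, and Mir295 had 578 and 215. No hairpin of the cluster in replicate 2 reached its own value in replicate 1, and both libraries had their highest and lowest counts at the same hairpins, Mir293 and Mir290a. Scaled by the trimmed mean of M-values (TMM), which multiplied replicate 2 by 1.09, the cluster was 2.79-fold higher in replicate 1, with a 95% interval of 2.59 to 3.01 that covers counting error only.

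The fold differed along the cluster. It was 5.11 (3.45 to 7.82) for Mir290a, 3.08 (2.38 to 4.04) for Mir291a and 4.79 (3.50 to 6.66) for Mir292. Downstream it was 2.67 (2.26 to 3.17) for Mir291b, 2.35 (2.02 to 2.74) for Mir293, 2.87 (2.30 to 3.59) for Mir294 and 2.47 (2.11 to 2.90) for Mir295. Divided between Mir292 and Mir291b, a place chosen after the values were seen, the first 3 hairpins had 672 and 154 counts, 4.01-fold higher in replicate 1 (3.36 to 4.81), and the last 4 had 2076 and 751, 2.54-fold higher (2.34 to 2.76). This is a description only, and the interval of Mir291a met those of all 4 hairpins of the second stretch. Per length, Mir290a had the lowest level, 48.2 CPM per kb in replicate 1 and 8.70 in replicate 2, and Mir295 the highest, 201 and 74.96, although in each library the interval of Mir295 met that of Mir293.

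**Figure D2:**
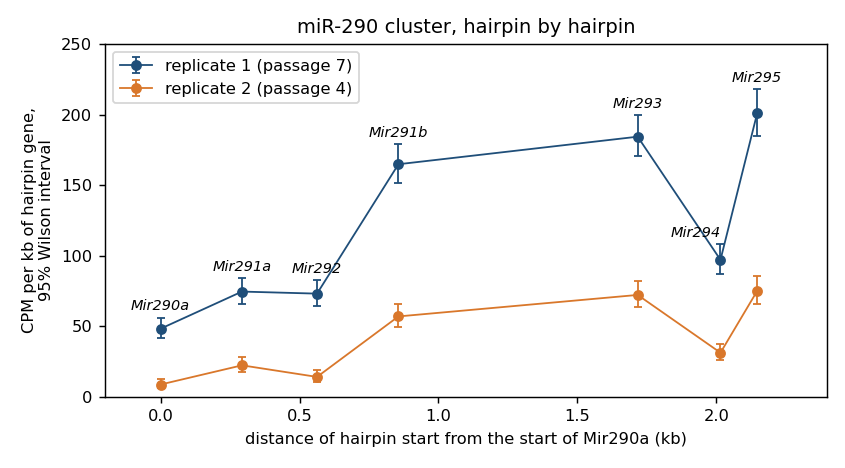
The level per length of each hairpin gene of the miR-290 cluster (CPM per kb, with 95% Wilson intervals of counting error) is plotted against its distance from the start of Mir290a in kb, with a line for each library. Replicate 1 lies above replicate 2 at all 7 hairpins, and in both libraries Mir291b, Mir293 and Mir295 lie above Mir290a.

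The gene with the most counts lay outside the clusters. Mir692-1 (ENSMUSG00000076218, chromosome 17, 6895229 to 6895337, outside other genes) had 1924 counts in replicate 1 and 1063 in replicate 2, a log2 ratio of 0.73. Its hairpin had near copies, with at least 90% identity over at least 80% of its length, in 20 other annotated genes, of which 13 had counts, 18014 and 10320 in all. Among them are Ftl1, which encodes the light chain of the iron store ferritin (1501 and 737 counts), and its pseudogene Ftl2-ps (12368 and 7107). The log2 ratio of these copies was 0.68. Reads could be shared among the copies, so the counts of Mir692-1 are uncertain. Mir692-2, inside an exon of Ftl2-ps, had 47 and 27 counts (log2 ratio 0.66).

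Mir6236, on chromosome 9 and outside other genes, had 544 and 437 counts, a log2 ratio of 0.19 whose interval as a fold, 1.01 to 1.30, lay just above 1. Mir5125, in an intron of Srrm2, a gene for a scaffold protein of nuclear speckles, had 194 and 126. Mir1191, in a same-strand exon of BC024978 (802 and 865 counts), had 78 and 65 counts. Mir196a-1, which lies between Hox genes of the HoxB cluster, had 76 and 63. For both of these the fold was close to 1, with intervals of 0.783 to 1.56 and 0.783 to 1.57. Reads on positions shared with another gene were left out by the authors, so the counts of Mir1191 may be partial. Of all 116 genes, near copies were found for 6, the others being Mir3070a with Mir3070b, Mirlet7a-1 and Mir669h. The search covered annotated transcripts only. Copies elsewhere in the genome were not looked for, so the remaining hairpins, Mir6236 among them, are not shown to be unique.

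Among the 25 genes with at least 20 counts, 8 were over 2-fold higher in replicate 1, 3 were over 2-fold higher in replicate 2 and 14 were within 2-fold. Of all 17788 genes with at least 20 counts, 14.2% were over 2-fold higher in replicate 1 and 7.14% in replicate 2. The 8 were the hairpins of the miR-290 cluster and Mir363, so that without the cluster, whose hairpins are known to come from one primary transcript, 1 gene of 18 was left. The median log2 ratio of the 25 genes was 0.52 against 0.02 for all genes, and without the cluster it was 0.15. Over all 116 genes, most of them under 20 counts, it was -0.36, with no median over all genes of such low counts computed beside it. The counting interval of the fold left out 1 for 15 of the 25 genes, 11 higher in replicate 1 and 4 in replicate 2. It did so for 73.2% of all genes with at least 20 counts, 37.8% with replicate 1 higher, and for 59.7% of those with 20 to 1000, so the 15 of 25 were near the background.

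The genes higher in replicate 2 had few counts. Mir1957a, in an intron of the glucose transporter gene Slc2a1, had 4 counts in replicate 1 and 21 in replicate 2, a log2 ratio of -2.25. Mir8091, on chromosome 19 outside other genes, had 17 and 46 (-1.50). Mir7003, in the cell cycle transcription factor gene Mybl2, had 10 and 22 (-1.18). Below 2-fold, Mir7-1 had 29 and 51 (-0.91) and Mir3058 had 14 and 21 (-0.67), and the interval of Mir3058 held 1.

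**Figure D3:**
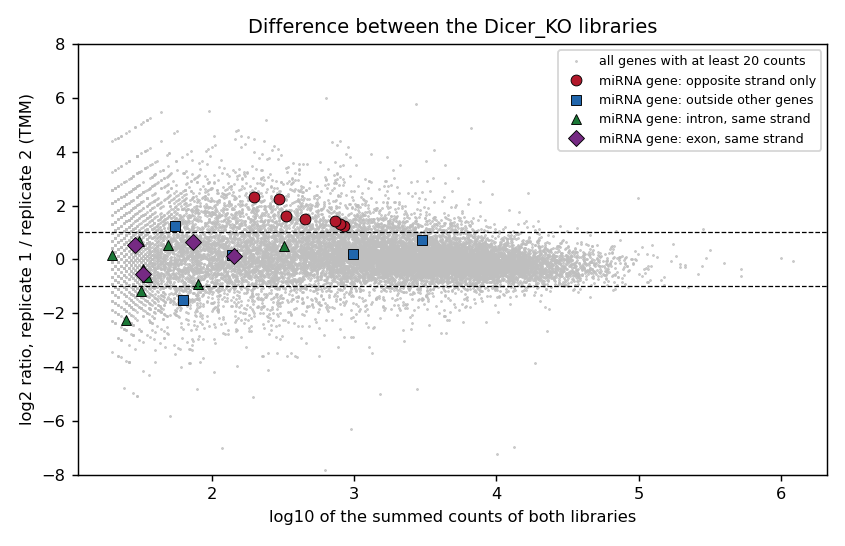
The log2 ratio of replicate 1 over replicate 2 after TMM scaling is plotted against the log10 of the summed counts, with all 17788 genes of at least 20 counts as grey dots and the 25 miRNA genes as symbols for their placement. The miR-290 hairpins (opposite strand only) lie above the dashed line of 2-fold, and the intronic genes spread to both sides of 0.

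The share of hairpins with reads is given by where they lie, as a description over the 1051 listed genes, and a link to placement was not tested. Of those inside a same-strand intron of another gene, 70 of 503 had at least 3 counts (13.9%). The share was 8.75% for hairpins in a same-strand exon (21 of 240), 11.5% for those with a gene on the opposite strand only (12 of 104), where counts depend on the strand setting, and 6.37% for those outside other genes (13 of 204). The authors left out reads on positions shared by 2 genes, which touches hairpins in exons. With a minimum of 10 counts the shares were 3.78% for introns and 5% for exons, so that their order turned. Counts were distributed otherwise: the 70 intronic genes held 476 and 502 counts, with a median sum of 4, whereas the 12 with a gene on the opposite strand held 2756 and 936, mostly the miR-290 cluster.

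For intronic hairpins the share with reads was larger where the host gene had more counts, as far as the host was listed in the count files. It was 1.22% (1 of 82) for hosts under 100 counts, 8.05% (7 of 87) from 100 to under 1000, 14.4% (35 of 243) from 1000 to under 10000 and 34.2% (27 of 79) for 10000 or more. Without the Sfmbt2 cluster, described further on, the third of these shares was 17.9% (33 of 184). Among hosts of at least 1000 counts, 62 of 322 same-strand intronic hairpins had reads (19.3%), against 1 of 37 in introns of genes on the opposite strand (2.70%). The introns around hairpins with reads had a median length of 1916 bases and those without of 6271, but 59 of these 322 hairpins, 2 of them with reads, are the Sfmbt2 cluster inside introns of 1 gene, with a median of 62472 bases. Without that cluster, a choice made after seeing the data, the medians were 1875 bases in both groups. By length, the share was 4.55% for introns under 200 bases (2 of 44), 29.2% from 200 to under 1000 (14 of 48), 30.7% from 1000 to under 5000 (23 of 75) and 14.8% for 5000 or more (23 of 155), and without the Sfmbt2 cluster the last was 21.9% (21 of 96). Hairpins of other clusters also share an intron or host and are not independent of each other.

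**Figure D4:**
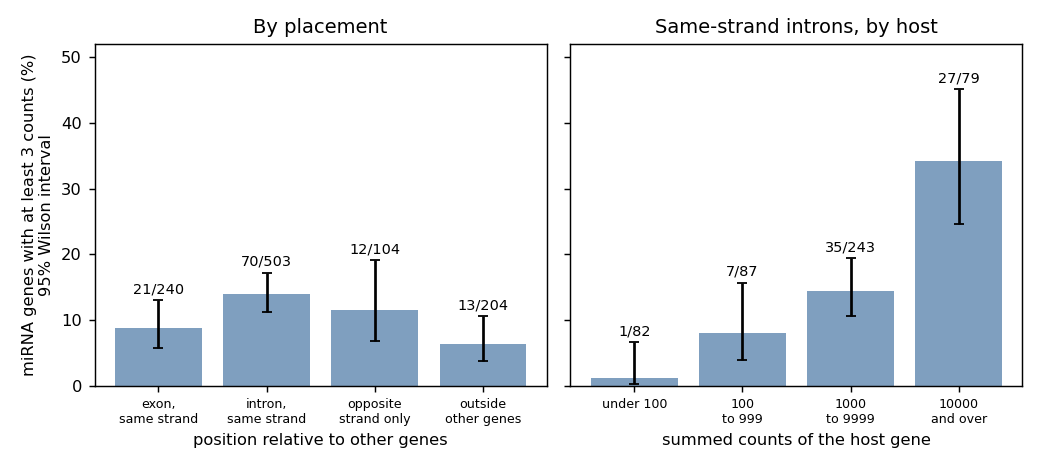
Bars give the percentage of listed miRNA genes with at least 3 counts, by position relative to other genes on the left and, for same-strand introns, by the summed counts of the host gene on the right, with 95% Wilson intervals and the numbers of genes above. The share goes from 1 of 82 for the least counted hosts to 27 of 79 for the most counted.

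Hairpin and host could be compared for 9 intronic genes with at least 20 counts. The host's log2 ratio lay inside the counting interval of the hairpin's for Mir7-1, Mir186, Mir5119, Mir1898 and Mir6955. Mir7-1 is carried by Hnrnpk, which encodes an abundant RNA-binding protein and had 23029 and 28021 counts. It lay outside for Mir5125, Mir3058, Mir7003 and Mir1957a. Mir5125 had a log2 ratio of 0.50 while Srrm2, with 35819 and 41674 counts, had -0.34, and Mir3058 had -0.67 while Nudt4, a diphosphoinositol phosphatase gene, had 0.50. Such a hairpin is counted over at most 139 bases of an intron, whereas the host's counts come from its exons.

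The other clusters known from embryonic stem cells had few reads on their hairpins. The miR-302 cluster, which follows miR-290 as cells leave the naive state, had 1 of 5 genes with at least 3 counts, and the 5 together had 2 counts in replicate 1 and 4 in replicate 2, within Larp7 on the opposite strand at 3483 and 5231. All 6 hairpins of the proliferation-linked miR-17-92 cluster were at 0, although Mir17hg, the transcript whose exon holds them, had 1816 and 2414 counts. Reads on such shared positions were left out by the authors. Of the miR-106b-25 cluster, Mir106b had 2 and 1 counts, and Mir93 and Mir25, which lie in exons, were at 0, within the replication gene Mcm7 at 15320 and 19294. The miR-15/16 family, which restrains the cell cycle, had 2 and 0 counts over 7 genes, and Mir15b and Mir16-2 were at 0 inside an intron of Smc4, a condensin gene with 13809 and 15021.

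The miR-106a-363 cluster on the X chromosome, a relative of miR-17-92, had reads on 4 of 6 genes. Mir363 had 40 counts in replicate 1 and 15 in replicate 2, 2.45-fold higher in replicate 1 (1.32 to 4.77). Mir92-2 had 9 and 5, Mir19b-2 had 6 and 0, and Mir18b had 6 and 0. With Mir106a (2 and 0) and Mir20b (0 and 1), the cluster had 63 and 21 counts, 2.76-fold higher in replicate 1 (1.66 to 4.76). That interval held the 2.79-fold of the miR-290 cluster. On the same chromosome, Mir374b and Mir421, which lie in an intron of the noncoding Ftx, had 1 and 2 counts each, while Ftx had 93 and 300.

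The lists of differentiation miRNAs had few or no counts, against a background in which 807 of the 1051 listed miRNA genes (76.8%) had 0 counts in both libraries. The let-7 family, which rises as cells differentiate, had 7 and 0 counts over 10 genes, of which Mirlet7a-1 gave 5 and 0, and 5 of the 10 lie in exons of other genes. The epithelial miR-200 family had 3 and 0 over 5 genes, all from Mir200a. The 8 muscle genes, 1 liver gene, 10 neural genes and 6 blood genes examined had 0 counts in each library. Of these, 2 muscle genes, the liver gene, 5 neural genes and 2 blood genes lie in exons of other genes, where reads on shared positions were left out, so that a 0 sets no limit there. Mir451a, Mir142b and Mir219a-2 have a gene on the opposite strand only, where a 0 depends on the strand setting. Elsewhere a count of 0 was taken to allow up to 3 counts, 0.0719 and 0.0722 CPM. Some host genes of the hairpins in these lists did have counts. Mir124a-1hg had 75 and 267, Mir9-3hg had 74 and 147, and Mir142hg, on the opposite strand of its hairpin, had 195 and 109. The most counts were in hosts of hairpins in same-strand introns. Huwe1 (Mirlet7f-2 and Mir98) had 29235 and 41870, and Wdr82 (Mirlet7g) had 10053 and 13295. R3hdm1 (Mir128-1) had 6418 and 8444, and Mib1 (Mir1b) had 5918 and 5807. The hairpins in these introns were at 0 in both libraries except Mir98, with 1 and 0.

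Hairpins of 2 imprinted regions had counts in replicate 2 only. Between Meg3 and Mirg, in the Dlk1-Dio3 domain of chromosome 12, whose noncoding RNAs are expressed from the maternal allele, 9 of 53 miRNA genes had at least 3 counts. In replicate 1 the 53 genes had 0 counts. In replicate 2 they had 58 over 16 genes, at least 21.04-fold more when 3 counts are taken as the floor for the 53 genes together in replicate 1. The counting interval used for the other folds starts lower, at 16.6-fold. Of the 53 genes, 12 lie in exons of other genes, Mir3072 among them, where reads on shared positions were left out. Others, such as Mir433 and Mir127, have a gene on the opposite strand only, where counts depend on the strand setting. A 0 at such places sets no clear limit, so the fold describes the counted reads only. Mir433 had 11 counts there, Mir3072 had 10, Mir453 had 6, Mir1193 and Mir3070b had 5 each, and Mir127, Mir1188, Mir3070a and Mir3071 had 3 each. These positions were spread over the domain, from Mir3070a at 46.9 kb from the start of Meg3 to Mir3072 at 207 kb.

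The noncoding RNAs of the domain lay the same way. Meg3 had 72 counts in replicate 1 and 9959 in replicate 2, Rian had 114 and 13236, and Mirg had 12 and 941. Rtl1, the protein-coding gene antisense to Mir433 and Mir127 and expressed from the paternal allele, had 0 and 1 counts. Mir3071, unlike Mir433 and Mir127, lies on the strand of Rtl1, inside an exon of that gene. Mir433 and Mir3072 are shown as the members of the domain with the most counts, in capitals again the seed.
miR-433-3p: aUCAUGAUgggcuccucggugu
miR-3072-3p: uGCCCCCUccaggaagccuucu

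**Figure D5:**
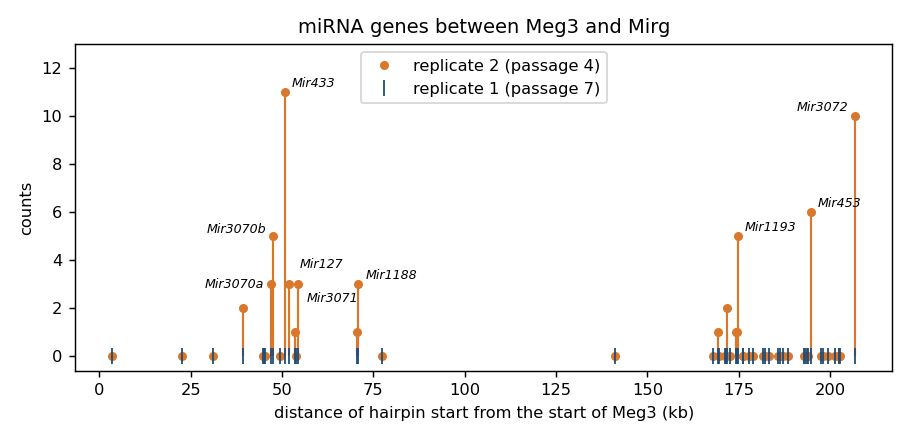
Counts of the 53 miRNA genes between Meg3 and Mirg are plotted against the distance of each hairpin from the start of Meg3 in kb, with orange stems for replicate 2 and blue ticks for replicate 1. All ticks of replicate 1 are at 0, and the stems of replicate 2 reach 11 counts at Mir433 and 10 at Mir3072.

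The cluster of repeated hairpins inside introns of Sfmbt2, an imprinted Polycomb gene, had 2 of 59 genes with at least 3 counts, Mir669i with 0 and 7 and Mir669h with 0 and 4. The 59 genes had 0 and 17 counts in all, at least 6.17-fold more in replicate 2 with the same floor, and 4.49-fold at the lower end of the counting interval. Sfmbt2 itself had 2431 and 4265 counts, a log2 ratio of -0.93. The search for near copies found none for Mir669i and 1 gene without counts for Mir669h, and did not cover the hairpins under 3 counts.

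In the other direction, Mir27b was the only gene with 0 counts in replicate 2 and at least 10 in replicate 1, with 10. Its neighbour Mir23b had 4 and 0. Mir27b lies in an exon and Mir23b in an intron of 2010111I01Rik, an aminopeptidase gene that had 1087 and 853 counts. The 3p sequence of Mir27b is shown because of its counts.
miR-27b-3p: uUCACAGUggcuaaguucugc
Against the floor of 3 counts, the counted reads of Mir27b were at least 3.06-fold higher in replicate 1, and 2.06-fold at the lower end of the counting interval. Reads on positions shared with the exon were left out by the authors, so the 0 in replicate 2 sets no limit on this hairpin. Both folds describe the counted reads only. Apart from the genes named here, those with 10 to 19 counts ranged from 3 to 14 counts in replicate 1 and from 4 to 13 in replicate 2. Mir343, within an exon of the DNA repair gene Ercc2 and named after its values were seen, had 1 and 12. Apart from the genes named above, those with 3 to 9 counts had at most 5 counts in replicate 1 and 8 in replicate 2.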

How the data were processed

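PolyA RNA of 2 Dicer_KO mESC libraries was analysed as 1 group. Per the labels and the study's methods, reads were trimmed with Trimmomatic, aligned to mm10 (GRCm38) with STAR (2.4.2a), allowing many multiple hits, and counted on Ensembl genes with featureCounts (1.4.5-p1). The authors deposited counts per gene as whole numbers, not normalized, and ignored reads on overlapping regions. The treatment of multi-mapping reads and the strand setting of the counting are not given in the sources used here, although the library kit is described as stranded.

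Biotypes, positions and hosts were taken from GENCODE M21, a later release on the same build, in which 1081 of 43629 identifiers had no entry. Replicate 2 was scaled to replicate 1 by TMM (edgeR 4.0.16, R 4.3.3). Log2 ratios used a pseudocount of 1 and were read for genes with a sum of at least 20 counts. Intervals are 95% Wilson for CPM and exact conditional binomial (Clopper-Pearson) for folds (scipy 1.17.1), and cover counting error only, since reads are not independent molecules. Near copies were found with blastn 2.17.0 among GENCODE transcripts. Log2 ratios and intervals of folds were tested on simulated counts with counting error only, for genes with a sum of at least 20 counts. The other steps were not tested in this way. No p-value was computed. The genes, families and alternatives were chosen with earlier results of these data known.

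Genes named are the 10 with the most counts, the 5 at either end of the ratios, those with 0 counts in 1 library and at least 10 in the other, up to 5 per family, their hosts, Dicer1 and the markers. Other genes were named after their values were seen. Depth, 41710122 and 41566184 counts, puts 3 counts at 0.0719 and 0.0722 CPM. Alternatives covered scaling, pseudocount, count minimum, fold, symbols, hosts, single clusters and each replicate left out.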

Additional observations from a re-analysis of the deposited data

How the results depend on the processing

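No paired analysis was possible because the files hold 1 group only. The labels do not name the line of a library, passage and library cannot be told apart, and folds cover counting error only. The 8 genes higher in replicate 1 and the 3 higher in replicate 2 were the same in number with DESeq2 size factors, total counts, no scaling and a pseudocount of 0.1. The median of all genes moved from 0.02 to 0.14 with total counts, and that of the miRNA genes from 0.52 to 0.63. Among 112 values of 28 named genes, none changed sign. The scaling factors of replicate 2 ranged only from 1 to 1.09, too little to turn any of these ratios. Outside their counting interval fell 2 values, both of Mir692-1, with total counts (0.85) and with no scaling (0.86).

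The number of genes with reads, 116, became 244 with at least 1 count, 46 with at least 10, 191 with any symbol, 47 with 3 in each library, and 64 to 83 with 1 library left out. For all 116 genes, 21 were over 2-fold higher in replicate 1 and 40 in replicate 2, and the interval left out 1 for 27. The median log2 ratio turned to -0.36, a setting that adds the genes under 20 counts. No share over all genes was computed for this setting, or for the other minimum and fold below. Of the 116 genes, 24 were at 0 in replicate 1 and 11 in replicate 2. Counts of 0 and 3, as for Mir127 (-2.09), already pass 2-fold, so these numbers describe low counts and are no result about miRNA genes. With sums of at least 100 the median was 1.27 and 0 genes were higher in replicate 2. At 4-fold, 2 and 1 genes were left. Added after seeing the data, leaving out the miR-290 cluster left 1 gene higher in replicate 1 and 8 with an interval that left out 1.

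The 84.7% share of the top 10 became 67.7% for 5 genes, 79.3% to 89.5% with 1 library left out, 85.5% without the miR-290 cluster and 80.8% without Mir692-1 and Mir692-2, the last pair also added later. With at least 1 count, the shares by placement were 13.8% for exons, 30.0% for introns, 25% for the opposite strand and 16.7% outside genes, and with at least 10 they were 5%, 3.78%, 8.65% and 2.94%, so that the order of introns and exons turned. With 1 library left out they were 5% to 7.08% for exons and 6.76% to 9.34% for introns, 8.65% to 9.62% for the opposite strand and 4.41% outside genes. Leaving out the Sfmbt2 cluster, also added after seeing the data, put introns at 15.3%. The 26 family genes with reads became 44 with at least 1 count and 11 with at least 10.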
